A study of Homo sapiens with 6 samples.

Results

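Members of the solute carrier (SLC) superfamily that move amino acids, sugars and lactate across the plasma and lysosomal membranes were compared between A549 cells with silenced FSCN1 (siFSCN1) and control cells (NC). They were selected by symbol, as protein-coding genes of the count table in families SLC1, SLC2, SLC3, SLC5, SLC6, SLC7, SLC16, SLC36, SLC38 and SLC43. The rule found 85 genes among the 30230 genes of the table, of which 17075 were protein-coding, and 57 of the 85 had enough counts to be tested. A549 is an established human lung adenocarcinoma cell line. According to the study, NC cells received a scrambled siRNA and siFSCN1 cells a single siRNA against FSCN1, which encodes the actin-bundling protein fascin. GEO's treatment label instead gives a control plasmid for NC. Polyadenylated RNA was sequenced in 3 libraries per group, described by the study as biological replicates. The comparison therefore rests on 1 cell line and 1 siRNA, with no second siRNA among the libraries.

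Most GLUT carriers of SLC2 let glucose pass down its gradient. Many other SLC proteins couple transport to sodium, to an exchanged amino acid or to protons, as the lactate carriers of SLC16 do. Several SLC7 carriers reach the cell surface only as a pair with the heavy chain SLC3A2, and SLC16A1 and SLC16A3 need the chaperone basigin (BSG). In cancer cells these proteins supply glutamine, leucine, cystine and glucose and export the lactate of glycolysis, and a few members at the lysosome report amino acid levels to the kinase complex mTORC1.

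FSCN1 had deposited values of 44.98, 47.24 and 45.99 FPKM in the NC libraries and 4.46, 2.82 and 3.19 FPKM in the siFSCN1 libraries, where FPKM are fragments scaled to transcript length and library depth. The groups did not overlap, and 6.75% of the NC level remained after scaling (log2 fold change -3.89, SE 0.094, adjusted p = 8.1e-16 in edgeR's quasi-likelihood test). The libraries held between 27967301 and 36560919 counts, and at least 1 count was found for 22904 to 23812 genes in NC and for 24738 to 25135 genes in siFSCN1. Summed FPKM of the epithelial markers KRT7, KRT8, KRT18, KRT19, EPCAM and CDH1 lay between 3117 and 3498 in NC and between 1759 and 2115 in siFSCN1. Of these 6 markers the 4 keratins fell, and EPCAM and CDH1 rose. The marker sum of any library was at most 0.13 FPKM for leukocytes, 0.26 FPKM for fibroblasts and 0.04 FPKM for endothelium. Of the alveolar type 2 markers, NKX2-1 and SFTPC reached at most 0.04 and 0.10 FPKM, and NAPSA was higher in siFSCN1 (log2 fold change 1.78, adjusted p = 1.1e-06 in edgeR) at a mean of 0.153 FPKM in NC and 0.597 FPKM in siFSCN1.

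Silencing of FSCN1 was accompanied by changes in most of the tested transporter genes, in both directions. At an adjusted p under 0.05, 20 of the 57 tested members (35.1%) were higher and 21 (36.8%) lower in siFSCN1, and 16 did not pass. Over all 17076 tested genes 35.1% were higher and 33.2% lower, and over the 13606 tested protein-coding genes 34.1% were higher and 38.0% lower. A change of at least 2-fold was found for 9 members that were higher (15.8%) and 1 that was lower (1.75%). The corresponding shares were 11.7% and 4.85% of all tested genes and 8.34% and 5.01% of the protein-coding genes. The counts scaled to library size (CPM, after TMM) of 40 members (70.2%) did not overlap between the groups, against 71.3% of all tested genes. The share of members that changed was thus near that of the other genes, and the median log2 fold change of the members was 0.023 beside 0.031 over all tested genes. In bulk RNA, fewer cells of a type and less RNA per cell cannot be told apart.

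These changes are relative to the scaling. Counts were scaled by TMM, which sets the typical gene near no change, whereas the deposited FPKM follow library depth. With library totals in place of TMM the median of all tested genes rose to 0.22, with upper quartile scaling it was 0.15 and with RLE 0.014. The members then numbered 27 higher and 14 lower with library totals, 26 and 17 with upper quartile scaling, and 20 and 21 with RLE. Both scales are given below, FPKM for the level in each library and the TMM-scaled log2 fold change for the test. A member whose direction depends on the scaling is named as such where it appears.

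**Figure D1:**
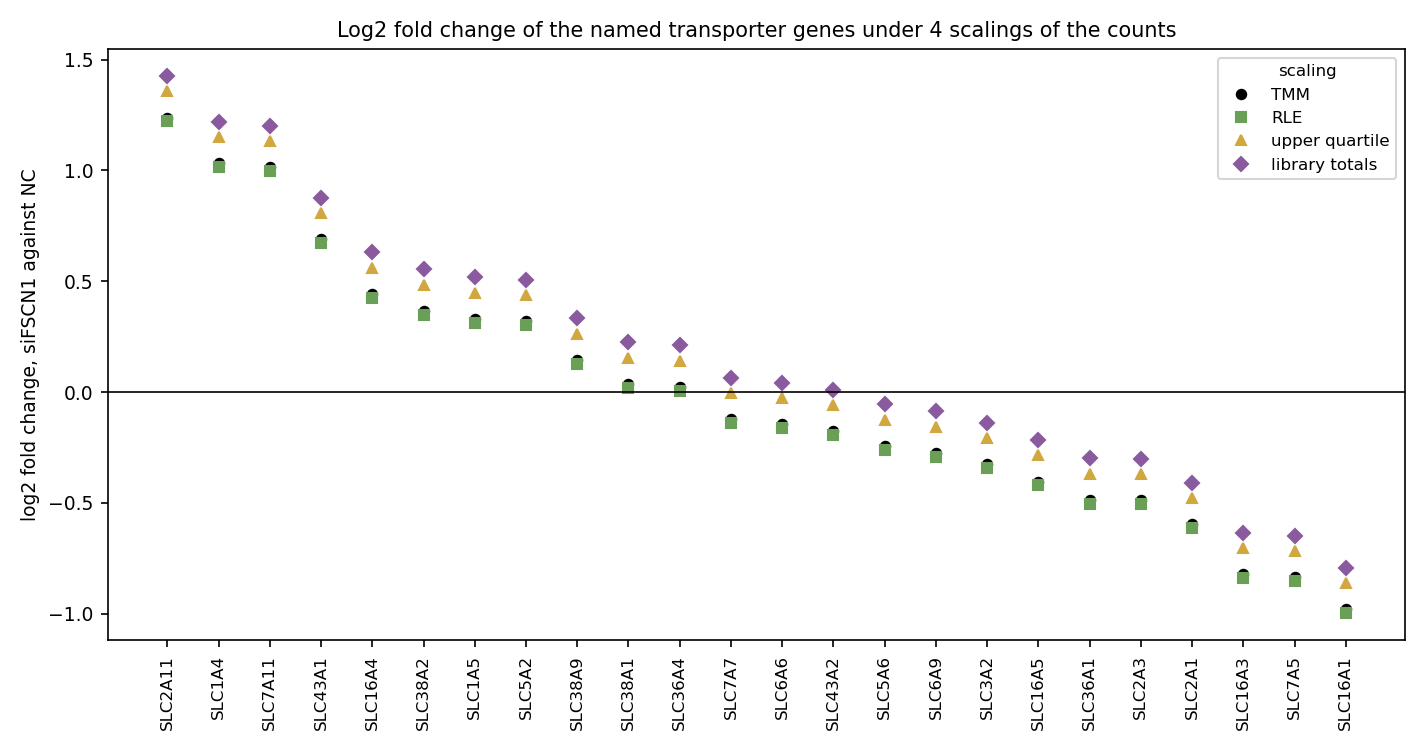
Log2 fold change of siFSCN1 against NC (vertical axis) of the 24 named transporter genes under TMM, RLE, upper quartile and library-total scaling. The spread between scalings is about the same for each gene, and SLC6A6, SLC7A7 and SLC43A2 lie below zero with TMM and above zero with library totals.

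**Figure D2:**
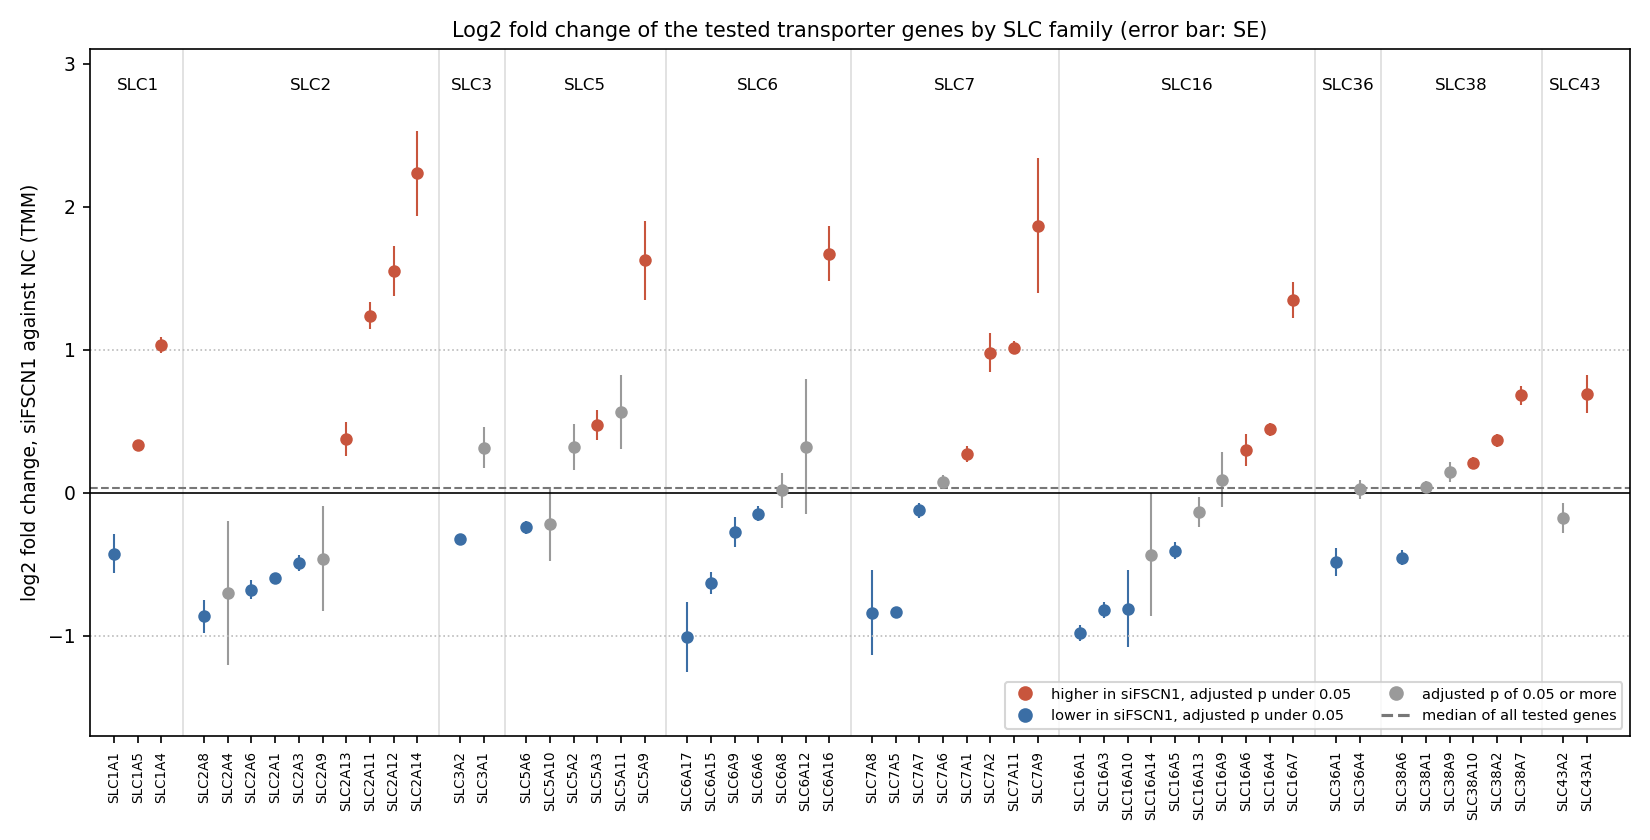
Log2 fold change of siFSCN1 against NC (vertical axis, TMM scaling) for 56 of the 57 tested members, ordered within each SLC family, with the standard error as bars. The 20 members in red and the 20 in blue passed at an adjusted p under 0.05, the dashed line is the median of all tested genes (0.031), and the dotted lines mark a 2-fold change in either direction.

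The heteromeric amino acid exchangers held the most abundant transcripts. SLC7A5 (LAT1, ENSG00000103257.9, GRCh38 chromosome 16, 87830023 to 87869507), the light chain that imports leucine and other large neutral amino acids, had 234.76, 239.54 and 234.04 FPKM in NC and 155.56, 144.55 and 145.22 FPKM in siFSCN1. Every NC library lay above every siFSCN1 library. SLC7A5 fell by 0.84 on the log2 scale (SE 0.037, adjusted p = 9.0e-13 in edgeR), to 56.0% of the NC level. SLC7A11 (xCT, ENSG00000151012.13, chromosome 4, 138164097 to 138242349), the light chain that imports cystine in exchange for glutamate, had 9.76, 10.19 and 10.44 FPKM in NC and 22.04, 22.36 and 24.44 FPKM in siFSCN1. These groups stood apart in the opposite direction, and SLC7A11 rose 2.02-fold (log2 fold change 1.01, SE 0.045, adjusted p = 8.1e-13 in edgeR). Its change sat at the 2-fold line, with a log2 fold change of 0.9957 under RLE scaling and 1.20 with library totals. Both genes passed in the same direction under all 16 alternatives. Here and below, this count leaves out the test against a 2-fold change (glmTreat) and the restriction to a mean of at least 1 FPKM.

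SLC3A2, the heavy chain (CD98) that both light chains need, had 115.91, 111.25 and 115.40 FPKM in NC and 105.59, 102.19 and 99.00 FPKM in siFSCN1. The groups did not overlap, but the shift was small, and SLC3A2 fell by 0.33 on the log2 scale (SE 0.037, adjusted p = 3.7e-07 in edgeR). Once the trend of fold change with abundance over all genes was removed, the value was 0.041 and no longer passed. The scaling cancels in a ratio of 2 transcripts within a library. The ratio of SLC7A11 to SLC3A2 in FPKM was 0.0842, 0.0916 and 0.0905 in NC and 0.209, 0.219 and 0.247 in siFSCN1, a 2.53-fold higher mean. The ratio of SLC7A5 to SLC3A2 was 2.03, 2.15 and 2.03 in NC and 1.47, 1.41 and 1.47 in siFSCN1. Neither pair of groups overlapped, and each exact two-sided permutation p was 0.1, the smallest that 3 against 3 libraries can give (0.15 after Benjamini-Hochberg adjustment over the 6 ratios computed).

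SLC7A7 (y+LAT1), a light chain that exchanges cationic for neutral amino acids, was the second most abundant SLC7 transcript. It had 38.70, 33.49 and 36.21 FPKM in NC and 39.54, 37.13 and 35.13 FPKM in siFSCN1, and the groups overlapped. Its log2 fold change was -0.12 (adjusted p = 0.0397 in edgeR) and turned to 0.064 with library totals. The call was lost without NC replicate 1 (-0.073), NC replicate 3 (-0.14), siFSCN1 replicate 2 (-0.14) or siFSCN1 replicate 3 (-0.094). Among the less abundant SLC7 genes, the cationic amino acid carriers SLC7A1 (0.27) and SLC7A2 (0.98) and the light chain SLC7A9 (1.87) were higher and the light chain SLC7A8 (-0.84) lower, given as log2 fold changes. Group means of SLC7A9 and SLC7A8 were at most 0.197 FPKM. The call for SLC7A8 was lost with library totals (-0.65), with DESeq2, the study's test (-0.87), and without NC replicate 1 (-0.74) or siFSCN1 replicate 3 (-0.64). SLC7A6 did not pass (0.076), but did with upper quartile scaling (0.19) and library totals (0.26). Its value is uncertain, since 55.6% of its exonic bases lie opposite other exons and the strand setting of the counting was not stated. The summed FPKM of the 10 SLC7 genes listed went from 293.6 ± 1.59 (SD, n = 3) in NC to 223.2 ± 7.40 (SD, n = 3) in siFSCN1, and the share of SLC7A5 in that sum from 80.4% to 66.5%. Of the SLC3 family, SLC3A1, which pairs with SLC7A9 in the kidney, had a log2 fold change of 0.31 and did not pass, but did with upper quartile scaling (0.43), with library totals (0.50) and without NC replicate 3 (0.39). For SLC3A1, 29.4% of exonic bases lie opposite other exons and 26.9% overlap other exons on the same strand.

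**Figure D3:**
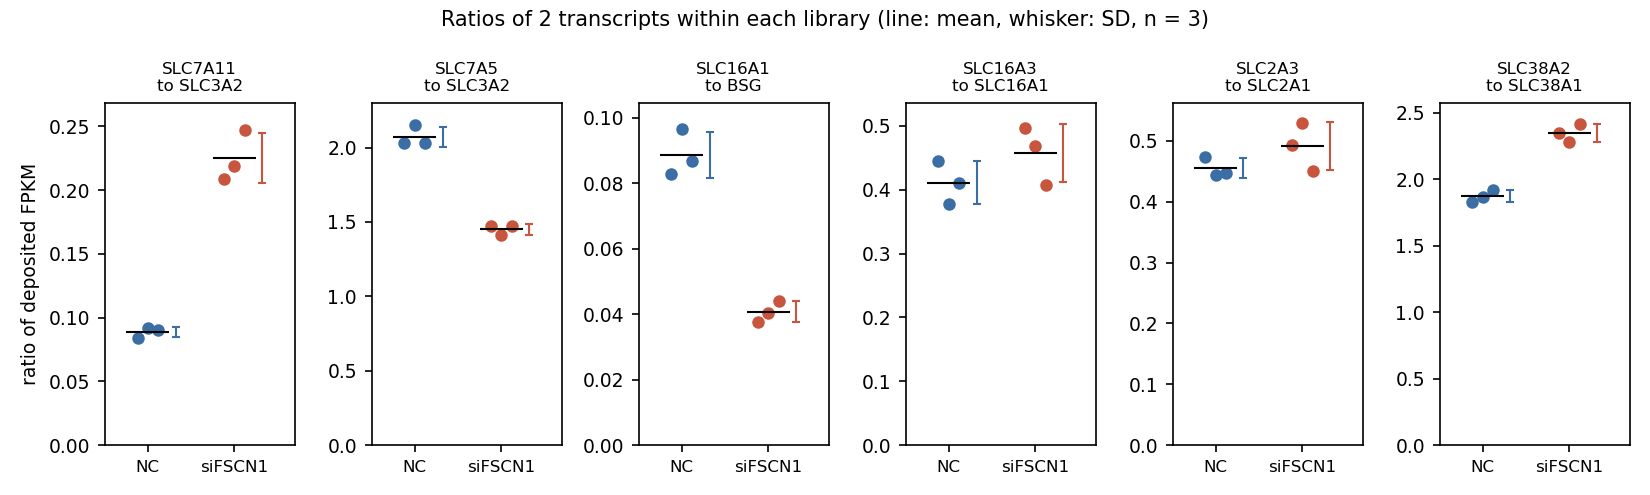
Ratio of the deposited FPKM of 2 transcripts (vertical axis, each panel from 0) in each of the 3 NC and 3 siFSCN1 libraries, with the mean as a line and the SD as a whisker. The ratios of SLC7A11 to SLC3A2, SLC7A5 to SLC3A2, SLC16A1 to BSG and SLC38A2 to SLC38A1 did not overlap between the groups, and the other two did.

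Among the carriers of glutamine and other small neutral amino acids SLC1A5, SLC1A4 and SLC38A2 were higher, and SLC38A1 did not pass. SLC1A5 (ASCT2, ENSG00000105281.12, chromosome 19, 46774883 to 46788594), a sodium-dependent exchanger that imports glutamine, had 64.83, 63.80 and 64.58 FPKM in NC and 94.93, 88.18 and 89.70 FPKM in siFSCN1. No value of one group reached the other, and SLC1A5 rose 1.26-fold (log2 fold change 0.33, SE 0.036, adjusted p = 2.0e-07 in edgeR). SLC1A4 (ASCT1, ENSG00000115902.11, chromosome 2, 64988477 to 65023865), which carries alanine, serine and cysteine, had 2.31, 2.45 and 2.23 FPKM in NC and 5.43, 5.32 and 5.26 FPKM in siFSCN1. It rose 2.04-fold with no overlap (log2 fold change 1.03, SE 0.053, adjusted p = 6.7e-12 in edgeR), and passed under all 16 alternatives, as did SLC1A5. The change of SLC1A4 also sat at the 2-fold line, with a log2 fold change of 0.985 without NC replicate 3 and 1.22 with library totals. The third tested SLC1 gene, the glutamate carrier SLC1A1, was lower (-0.43), a call lost with upper quartile scaling (-0.31), with library totals (-0.24) and without NC replicate 1 (-0.35).

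SLC38A2 (SNAT2), a sodium-coupled carrier that cells induce when amino acids are scarce, had 19.80, 21.28 and 21.97 FPKM in NC and 29.61, 29.11 and 32.48 FPKM in siFSCN1. The siFSCN1 values all lay above those of NC, and SLC38A2 rose 1.29-fold (log2 fold change 0.37, SE 0.046, adjusted p = 1.3e-06 in edgeR). Its relative SLC38A1 (SNAT1) had 10.82, 11.38 and 11.46 FPKM in NC and 12.61, 12.74 and 13.41 FPKM in siFSCN1. The FPKM of SLC38A1 did not overlap, but its TMM-scaled CPM did, with a log2 fold change of 0.038 (adjusted p = 0.429 in edgeR) that became 0.23 and passed with library totals, and was -0.0019 without siFSCN1 replicate 3. The ratio of SLC38A2 to SLC38A1, which needs no scaling, was 1.83, 1.87 and 1.92 in NC and 2.35, 2.28 and 2.42 in siFSCN1 (exact permutation p = 0.1, two-sided). The lysosomal glutamine exporter SLC38A7 (0.68) and SLC38A10 (0.21) were also higher and SLC38A6 (-0.46) was lower, as log2 fold changes. The summed FPKM of the family went from 50.9 ± 1.55 (SD, n = 3) to 66.2 ± 2.20 (SD, n = 3), given as a description with no test.

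Of the lysosomal members, SLC38A9, an arginine sensor upstream of mTORC1, had 1.65, 1.55 and 1.62 FPKM in NC and 1.86, 2.00 and 2.12 FPKM in siFSCN1. The FPKM did not overlap, yet the TMM-scaled log2 fold change of 0.15 did not pass (SE 0.070, adjusted p = 0.0741 in edgeR). It was 0.33 and passed with library totals, and 0.19 and passed without siFSCN1 replicate 1. SLC36A1 (PAT1), a proton-coupled exporter of small amino acids from the lysosome, had 1.35, 1.47 and 1.50 FPKM in NC and 1.14, 1.17 and 1.15 FPKM in siFSCN1. SLC36A1 fell by 0.49 on the log2 scale with no overlap (SE 0.098, adjusted p = 2.5e-04 in edgeR). Its relative SLC36A4 had 1.43, 1.52 and 1.63 FPKM in NC and 1.69, 1.67 and 1.86 FPKM in siFSCN1, and a log2 fold change of 0.023 (adjusted p = 0.780 in edgeR). With library totals the value for SLC36A4 was 0.21 and passed, and without NC replicate 1 or siFSCN1 replicate 3 it turned to -0.025 and -0.038.

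The SLC43 family holds further carriers of large neutral amino acids that work without a heavy chain. SLC43A1 (LAT3) had 0.80, 0.63 and 0.78 FPKM in NC and 1.51, 1.23 and 1.28 FPKM in siFSCN1, and rose 1.61-fold with no overlap (log2 fold change 0.69, SE 0.14, adjusted p = 1.9e-04 in edgeR). SLC43A2 (LAT4) had 0.80, 0.98 and 0.89 FPKM in NC and 0.88, 0.92 and 0.86 FPKM in siFSCN1. These groups overlapped, and the log2 fold change of -0.18 did not pass (adjusted p = 0.136 in edgeR), turned to 0.0097 with library totals, and passed at -0.25 without NC replicate 1. The leucine carriers thus moved in different directions, with SLC7A5 lower and the much less abundant SLC43A1 higher.

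**Figure D4:**
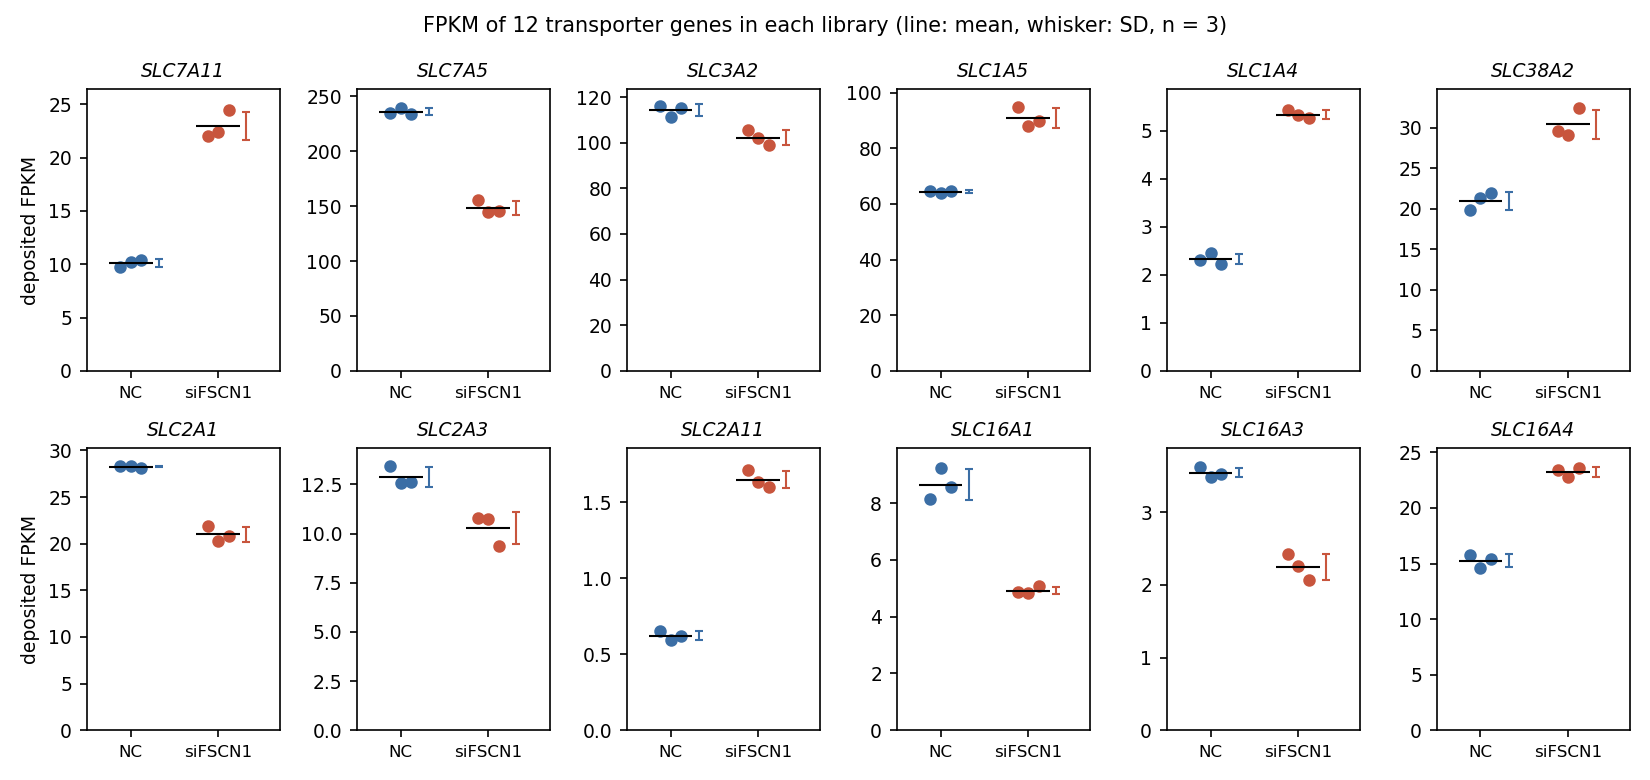
Deposited FPKM (vertical axis, each panel from 0) of 12 transporter genes in each of the 3 NC and 3 siFSCN1 libraries, with the mean as a line and the SD as a whisker. In none of the 12 panels do the groups overlap; SLC7A11, SLC1A5, SLC1A4, SLC38A2, SLC2A11 and SLC16A4 were higher in siFSCN1 and the other genes lower.

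The main glucose carriers were lower. SLC2A1 (GLUT1, ENSG00000117394.24, chromosome 1, 42925353 to 42958893), the basal glucose carrier of most cells, had 28.37, 28.29 and 28.16 FPKM in NC and 21.92, 20.26 and 20.77 FPKM in siFSCN1. The groups lay well apart, and SLC2A1 fell to 66.1% of the NC level (log2 fold change -0.60, SE 0.037, adjusted p = 1.1e-10 in edgeR). SLC2A3 (GLUT3), a carrier of higher glucose affinity, had 13.45, 12.56 and 12.60 FPKM in NC and 10.81, 10.72 and 9.36 FPKM in siFSCN1. It fell by 0.49 on the log2 scale with no overlap (SE 0.056, adjusted p = 3.5e-07 in edgeR). Both passed under all 16 alternatives. The ratio of SLC2A3 to SLC2A1 overlapped between the groups, with a mean of 0.455 ± 0.0165 (SD, n = 3) for NC against 0.491 ± 0.0393 (SD, n = 3) for siFSCN1, and the exact permutation p was 0.2, two-sided. The less abundant SLC2A6 (-0.68) and SLC2A8 (-0.86), carriers of the lysosome and other internal membranes, were lower as well.

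In the same family 4 of the 10 tested members were higher, all of low abundance. Over all tested genes 35.1% were higher, and of the protein-coding genes under 1 FPKM 42.4%. SLC2A11 (GLUT11), a fructose and glucose carrier, had 0.65, 0.59 and 0.62 FPKM in NC and 1.71, 1.63 and 1.60 FPKM in siFSCN1. The groups were far apart, and SLC2A11 rose 2.36-fold (log2 fold change 1.24, SE 0.098, adjusted p = 2.5e-09 in edgeR). SLC2A12 (1.55), SLC2A13 (0.37), a proton-coupled myo-inositol carrier, and SLC2A14 (2.23) were higher at a group mean of at most 0.667 FPKM. The call for SLC2A13 was lost without NC replicate 1 (0.30) or siFSCN1 replicate 3 (0.31). The SLC2A14 value is uncertain, since 16.4% of its 50-base windows also occur in SLC2A3, and so is that of SLC2A12, since 51.2% of its exonic bases lie opposite exons of TBPL1 and the strand setting of the counting was not stated. The share opposite other exons was 20.9% for SLC2A11 and 23.8% for SLC1A5, SLC2A3 shares 13.9% of its windows with SLC2A14 and pseudogenes, and SLC7A5 shares 3.9% with pseudogenes. SLC2A4 (GLUT4), the insulin-regulated carrier, and SLC2A9, a urate carrier, had group means of at most 0.09 FPKM and did not pass. Summed over the 14 SLC2 genes listed, the level was 50.2 ± 0.560 (SD, n = 3) FPKM in NC and 39.9 ± 1.82 (SD, n = 3) FPKM in siFSCN1, of which SLC2A1 made up 56.3% and 52.6%.

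The proton-coupled lactate carriers SLC16A1 and SLC16A3 were lower too, whereas the rarer lactate carrier SLC16A7 was higher (log2 fold change 1.35). SLC16A1 (MCT1, ENSG00000155380.13, chromosome 1, 112911847 to 112957593), which moves lactate and pyruvate in either direction, had 8.14, 9.24 and 8.58 FPKM in NC and 4.87, 4.82 and 5.07 FPKM in siFSCN1. SLC16A1 fell to 50.7% of the NC level with no overlap (log2 fold change -0.98, SE 0.055, adjusted p = 2.1e-11 in edgeR). SLC16A3 (MCT4), the lactate exporter of glycolytic cells, had 3.62, 3.49 and 3.53 FPKM in NC and 2.42, 2.26 and 2.07 FPKM in siFSCN1. It fell to 56.6% of the NC level, again with no overlap (log2 fold change -0.82, SE 0.057, adjusted p = 4.1e-10 in edgeR). The ratio of SLC16A3 to SLC16A1 overlapped, with 0.411 ± 0.0335 (SD, n = 3) for NC against 0.458 ± 0.0453 (SD, n = 3) for siFSCN1 and an exact permutation p of 0.3, two-sided. Both carriers passed in the same direction under all 16 alternatives.

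Their chaperone did not follow them. BSG had 98.28, 95.78 and 98.86 FPKM in NC and 129.12, 119.24 and 114.95 FPKM in siFSCN1, with no overlap and a log2 fold change of 0.14 (adjusted p = 0.00385 in edgeR). The ratio of SLC16A1 to BSG was 0.0828, 0.0965 and 0.0868 in NC and 0.0377, 0.0404 and 0.0441 in siFSCN1, which was 0.459 times the NC mean (exact two-sided permutation p = 0.1). EMB, the alternative chaperone of this family, had a log2 fold change of 0.60 (adjusted p = 3.4e-05) and NPTN, a relative of BSG, one of 0.097 (adjusted p = 0.0422), both higher in edgeR, although with RLE scaling 2 in place of 3 of these partners were higher. CLTRN, a partner of SLC6A19 in the kidney, was lower at -1.35 (adjusted p = 0.00122) from 0.72, 0.68 and 0.45 FPKM in NC to 0.34, 0.31 and 0.15 FPKM in siFSCN1.

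Other SLC16 genes changed in both directions. SLC16A4, an orphan member and the most abundant of the family, had 15.76, 14.63 and 15.37 FPKM in NC and 23.46, 22.77 and 23.59 FPKM in siFSCN1. SLC16A4 rose 1.36-fold with no overlap (log2 fold change 0.44, SE 0.047, adjusted p = 1.5e-07 in edgeR). SLC16A5 had 8.03, 8.45 and 8.91 FPKM in NC and 7.90, 6.39 and 7.26 FPKM in siFSCN1, and fell by 0.40 on the log2 scale (SE 0.063, adjusted p = 1.6e-05 in edgeR). SLC16A7 (MCT2), a high-affinity pyruvate and lactate carrier, was higher (1.35) at a group mean of at most 0.767 FPKM. SLC16A6 (0.30) was higher, and SLC16A10 (-0.81), a carrier of aromatic amino acids, was lower. Without NC replicate 1 neither passed (0.24 and -0.58), nor did SLC16A6 without siFSCN1 replicate 3 (0.27) or with DESeq2 (0.27). SLC16A6 shares 8.6% of its windows with a pseudogene. The summed FPKM of the 14 SLC16 genes listed differed little, with 45.9 ± 0.505 (SD, n = 3) for NC against 48.3 ± 1.66 (SD, n = 3) for siFSCN1, while the share of SLC16A4 went from 33.3% to 48.2%.

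Among the sodium-coupled carriers of the SLC5 and SLC6 families, the more abundant SLC5A6, SLC6A6 and SLC6A9 were lower with calls that were lost under library totals, whereas the rarer SLC5A9 and SLC6A16 were higher and SLC6A17 lower by at least 2-fold. SLC5A6, which imports biotin and pantothenate, had 10.50, 10.69 and 10.70 FPKM in NC and 10.67, 9.75 and 9.84 FPKM in siFSCN1. The FPKM of SLC5A6 overlapped, but its TMM-scaled CPM did not. Its log2 fold change was -0.24 (SE 0.047, adjusted p = 1.6e-04 in edgeR), but with library totals it was -0.056 and did not pass. Nor did it pass without the trend of fold change with abundance (-0.080). SLC5A2 (SGLT2), the renal glucose carrier, had 0.96, 0.97 and 0.73 FPKM in NC and 1.28, 1.48 and 0.96 FPKM in siFSCN1, which overlapped, and did not pass (log2 fold change 0.32, adjusted p = 0.0804 in edgeR). It passed at 0.46 without siFSCN1 replicate 3 and at 0.51 with library totals, and 40.7% of its exonic bases lie opposite other exons. The myo-inositol carrier SLC5A3 (0.47) and SLC5A9 (1.62) were higher.

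SLC6A6, the taurine carrier, had 18.33, 19.94 and 18.38 FPKM in NC and 18.18, 18.49 and 20.75 FPKM in siFSCN1. These values overlapped, and the log2 fold change of -0.15 (adjusted p = 0.0159 in edgeR) turned to 0.042 with library totals and did not pass without NC replicate 2 (-0.12) or siFSCN1 replicate 2 (-0.14). SLC6A9, the glycine carrier GlyT1, had 1.31, 1.19 and 1.28 FPKM in NC and 1.20, 1.17 and 1.14 FPKM in siFSCN1. The FPKM of SLC6A9 overlapped, but its TMM-scaled CPM did not. Its log2 fold change of -0.27 (adjusted p = 0.0304 in edgeR) did not pass with library totals (-0.087), nor without NC replicate 1 (-0.25) or siFSCN1 replicate 3 (-0.27). Of the rarer genes, SLC6A16 (1.67) was higher, and the neutral amino acid carriers SLC6A15 (-0.63) and SLC6A17 (-1.01) were lower. SLC6A17, at 0.18, 0.25 and 0.21 FPKM in NC and 0.09, 0.13 and 0.13 FPKM in siFSCN1, was the 1 member lower by at least 2-fold. That count was 0 without NC replicate 2 or siFSCN1 replicate 1 and 2 without NC replicate 1, NC replicate 3 or siFSCN1 replicate 3.

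The counts in each direction varied with abundance, for the members and for other genes. Among the 23 tested members with a mean under 1 FPKM, 9 were higher and 5 lower, and of 3697 protein-coding genes in that range 42.4% were higher and 16.0% lower. Between 1 and 10 FPKM 6 members were higher and 9 lower of 21, beside 36.1% and 37.4% of 6925 genes. At 10 FPKM or more 5 members were higher and 7 lower of 13, beside 19.3% and 66.5% of 2984 genes. Of the 10 members that changed at least 2-fold, 3 had a mean of at least 1 FPKM in the higher group, namely SLC7A11, SLC1A4 and SLC2A11. The siFSCN1 libraries also had more genes with a count, and the part of this difference in the changes of rare members was not tested. Without the trend with abundance 21 members were higher and 20 lower.

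**Figure D5:**
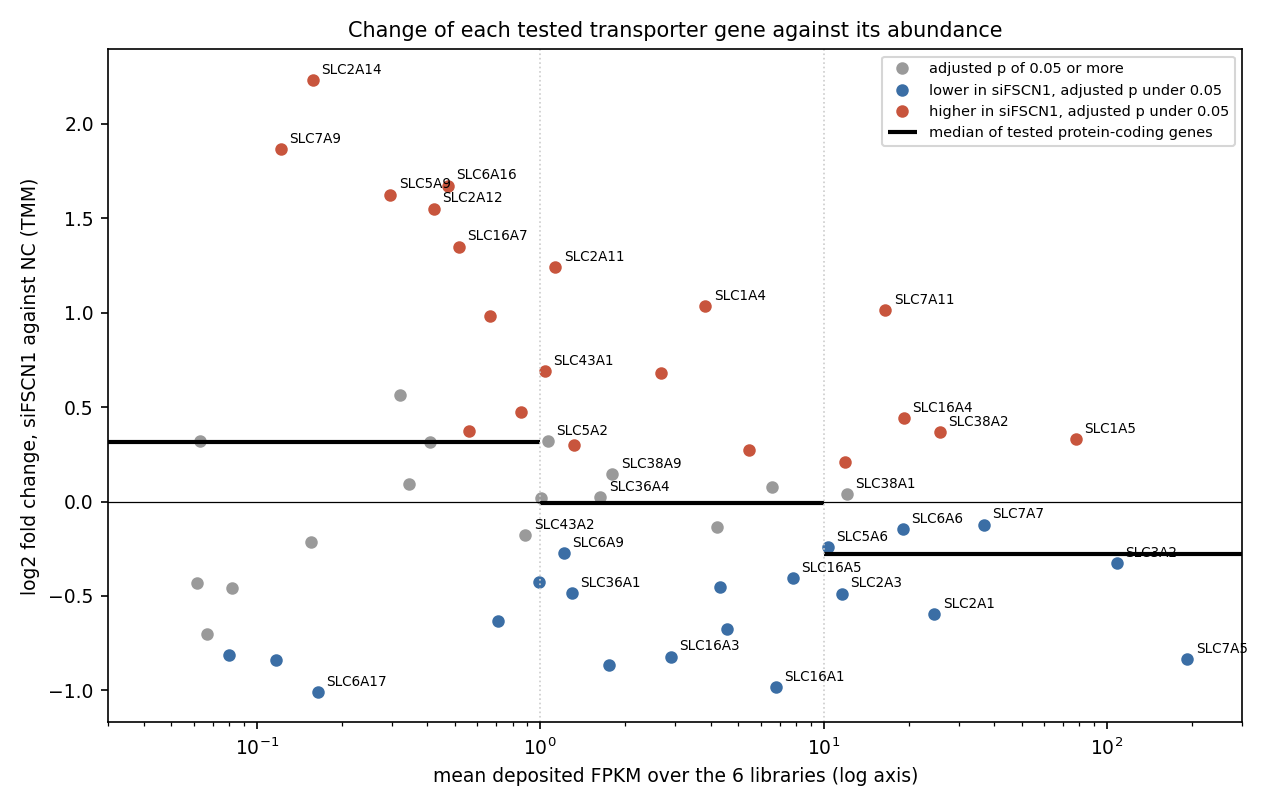
Log2 fold change of siFSCN1 against NC (vertical axis, TMM scaling) of 56 of the 57 tested members against their mean deposited FPKM over the 6 libraries (log axis), with the calls in colour. Black lines give the median log2 fold change of tested protein-coding genes under 1 FPKM (0.31), from 1 to 10 FPKM (-0.0082) and at 10 FPKM or more (-0.28); SLC7A11, SLC1A5, SLC16A4, SLC38A2, SLC38A10 and, without passing, SLC38A1 lie above zero in the last range.

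The 28 members that were not tested had at most 18 counts in any library, the highest being SLC43A3. They include the glutamate carriers SLC1A2 and SLC1A3, the glucose and fructose carriers SLC2A2, SLC2A5 and SLC5A1, the serotonin and dopamine carriers SLC6A4 and SLC6A3, and SLC6A14, SLC7A10 and SLC38A5. Their counts were too low for the main test. With no filter beyond 1 count 44 members passed in place of 41, and 11 in place of 9 were higher by at least 2-fold. Among the tested members only SLC5A2 (0.31) gained a call in that setting, so some of the genes left out of the main test passed. Of the tested members that did not pass and have not been named, SLC5A10, SLC5A11, SLC6A8, SLC6A12, SLC16A9, SLC16A13 and SLC16A14 had log2 fold changes between -0.43 and 0.56. The direction depended on the scaling for SLC6A8 (0.016, and -0.0014 with RLE) and SLC16A13 (-0.13, and 0.054 with library totals). SLC5A11 (0.56) passed with upper quartile scaling (0.68), with library totals (0.75), and without NC replicate 3 (0.85) or siFSCN1 replicate 3 (0.67).

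Promoter windows are shown for the members of the amino acid import group because the C/EBP-ATF response element (CARE), bound by ATF4 when amino acids are scarce, is known at several transporter genes. The RefSeq promoter table (GRCh38.p14, 250 bases before to 50 after each start) held 96 windows of 65 members. The letters TGATGNAAN, searched on both strands, occurred in 3.61% of all 35116 windows and in 7 of the 96 (7.29%). Among tested members they occurred at SLC1A4, SLC1A5, SLC38A1, SLC3A2 and SLC7A1, of which 3 were higher, 1 lower and 1 did not pass. Over all tested genes 35.1% were higher and 33.2% lower, and a link of the letters with direction was not tested. SLC7A11, SLC16A1 and SLC2A3 have no entry in the table. The sites are given with their flanks on the strand that reads TGATG, with the match in capitals.
SLC1A4, chr2:64989383-64989407: gctggagaTGATGCAAAcgggagcc
SLC1A5, chr19:46784895-46784919: gaagtggcTGATGCAAGctgtccag
SLC38A1, chr12:46266504-46266528: gacccgaaTGATGAAAAgggatcag
SLC3A2, chr11:62881727-62881748: ggagcTGATGTAAGgagtcctg
SLC7A1, chr13:29595665-29595689: cgcactgcTGATGAAACctggcgcc

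A match of this kind is a description of letters and not evidence of a site in use. The whole windows of SLC1A4, the SLC1 gene that rose most, and of SLC7A5, the most abundant member and one that fell, are printed for comparison, 5′ to 3′ on the strand of the gene, with motif matches in capitals. SLC2A11, which rose more than SLC1A4 (1.24), had no CARE match, and neither had SLC16A3, which fell (-0.82). Besides CARE, the antioxidant response element in its forms TGACNNNGC and TGAGNNNGC (13.3% and 18.3% of all windows), the E-box CACGTG (7.26%) and the hypoxia response core GCGTG (36.5%) were searched on both strands. Of the tested members with TGACNNNGC 2 of 7 were higher and 3 lower, and with TGAGNNNGC 9 of 18 and 4. With CACGTG 5 of 10 were higher and 4 lower, and with GCGTG 9 of 26 and 11. The SLC1A4 window (chr2:64989149-64989448, plus strand) held GCGTG, TGAGNNNGC and CARE on the opposite strand, and the SLC7A5 window (chr16:87869458-87869757, minus strand) held GCGTG on the opposite strand, CACGTG and TGACNNNGC.
SLC1A4: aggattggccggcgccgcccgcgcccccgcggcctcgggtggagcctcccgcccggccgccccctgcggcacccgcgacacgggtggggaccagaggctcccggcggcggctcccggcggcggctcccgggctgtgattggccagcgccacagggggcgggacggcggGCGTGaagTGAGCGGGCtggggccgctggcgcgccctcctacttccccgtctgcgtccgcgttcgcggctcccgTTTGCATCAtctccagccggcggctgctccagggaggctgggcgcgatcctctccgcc
SLC7A5: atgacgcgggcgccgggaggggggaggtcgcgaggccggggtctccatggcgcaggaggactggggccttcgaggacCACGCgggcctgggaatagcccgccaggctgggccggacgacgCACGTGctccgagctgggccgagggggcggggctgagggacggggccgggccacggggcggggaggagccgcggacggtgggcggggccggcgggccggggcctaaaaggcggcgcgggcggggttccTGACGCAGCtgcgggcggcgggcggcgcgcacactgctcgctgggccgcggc

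Genes that act beside the transporters were read from the same test, in which 35.1% of all tested genes were higher and 33.2% lower. Of 18 genes of the amino acid response, 9 were higher and 5 lower. ATF4, the factor that drives it, had 103.53, 105.64 and 108.77 FPKM in NC and 133.49, 129.21 and 127.89 FPKM in siFSCN1 (log2 fold change 0.13, adjusted p = 0.00285 in edgeR). The changes of largest size were those of DDIT4 (0.97) and SESN2 (0.53), both inhibitors of mTORC1, upward, and of ATF5 (-1.91) and STC2 (-0.68) downward. ASNS, which makes asparagine and is a standard target of ATF4, was lower at -0.56. The ATF4-linked genes of this list therefore moved in both directions. ATF4, and RPTOR and MTOR below, were named after their values were seen.

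Of 11 tested enzymes of glutamine and glutamate, 2 were higher and 6 lower. GLUL, which makes glutamine, rose by 0.79 and GFPT1, which uses it for hexosamines, by 0.56, while GOT2 fell by 0.68 and ASNS by 0.56 on the log2 scale. Among 12 genes of cystine and glutathione metabolism 3 were higher and 5 lower. GCLC fell by 0.89 and GCLM by 0.59, the catalytic and regulatory subunits of the enzyme that uses the cysteine delivered by SLC7A11, whereas NFE2L2 (0.22) and the glutathione-degrading CHAC1 (0.36) were higher. SLC7A11 and the glutamate-cysteine ligase genes therefore moved in opposite directions.

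Of 10 enzymes of lactate and pyruvate 3 were higher and 4 lower. LDHA, which makes lactate, had 430.29, 443.23 and 437.29 FPKM in NC and 264.16, 254.04 and 257.06 FPKM in siFSCN1 (log2 fold change -0.92, adjusted p = 2.3e-13 in edgeR). PDK3 fell by 0.79, and PDK4 (0.70) and MPC1 (0.38), the latter a part of the mitochondrial pyruvate carrier, were higher. LDHA was thus lower beside SLC2A1, SLC16A1 and SLC16A3. Of 12 genes that bear on glucose uptake 6 were higher and 4 lower, among them MLXIPL (1.55) and MLXIP (1.08), glucose-sensing factors, upward and HK1 (-0.44) and G6PC3 (-0.42) downward.

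In the list of lysosomal amino acid sensing, 11 of 32 tested genes were higher and 12 lower, near the shares over all tested genes (35.1% and 33.2%). The sestrin SESN3 (1.33) and the Rag GTPase RRAGB (0.54) were among the higher genes and RRAGD (-1.38) and SESN1 (-1.16) among the lower. RPTOR, the subunit of mTORC1 that binds the Rag GTPases, was lower at -1.09, and MTOR higher at 0.48.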

How the data were processed

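The data were 6 RNA sequencing libraries of A549 cells, 3 labelled NC and 3 labelled siFSCN1, grouped by sample title. Reads were trimmed by the authors with the FASTX Toolkit and mapped to GRCh38 with HISAT2, and only reads with a unique position were used (the submitters' processing notes name TopHat2 and bcl2fastq). They deposited raw counts per gene and FPKM, which they scaled to transcript length and mapped fragments. Which program counted the reads, with which strand setting and annotation, was not given in the sources used here, and the labels and the methods name different stranded library kits. All 6 count columns and all 6 FPKM columns were matched to samples by title.

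Counts were filtered with filterByExpr, scaled by TMM and compared in R 4.3.3 with the quasi-likelihood test of edgeR 4.0.16 and Benjamini-Hochberg adjustment over all 17076 tested genes. The common biological coefficient of variation was 5.94%. SE is the log2 fold change divided by the root of its F statistic. The script was tested on simulated data first. Chi-square per degree of freedom between libraries of a group ran from 2.95 to 7.49, so no pair agreed within sampling noise. Ratios of FPKM were compared with exact two-sided permutation tests. Alternatives were RLE, upper quartile and library-total scaling, DESeq2 1.42.0, leaving out each library, a replicate block, a filter of 1 count, a stricter filter (1 CPM in 3 libraries and a mean of 10 counts), limma 3.58.1 on log2(FPKM + 0.1) and log2(FPKM + 1) for genes reaching 0.1 FPKM, removal of the loess trend of fold change with abundance, glmTreat against a 2-fold change, and members with a mean of at least 1 FPKM.

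The members and lists were chosen with earlier results of these data known. Named with values in every library were members that passed with a change of 2-fold or more and a mean of at least 1 FPKM in the higher group, the 2 members of highest mean FPKM in each family where that mean was at least 1, and 13 well-known transporters. Of the tested members 1 counts in the totals but is not reported here by name or drawn. Of the other lists the 2 largest changes each way were named among passing genes with a mean of at least 1 FPKM in the higher group. Gene positions and exon overlaps came from GENCODE v44 (GRCh38), and promoter windows from RefSeq (GRCh38.p14).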

Additional observations from a re-analysis of the deposited data

How the results depend on the processing

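The count of members that passed, 41, lay between 35 and 44 under all alternatives except the restriction to a mean of at least 1 FPKM, which left 29 of fewer genes. That restriction left 12 members higher and 3 changed at least 2-fold, all 3 higher and 0 lower, and limma left 13 lower on either FPKM scale. Against 10 members changed at least 2-fold, limma on log2(FPKM + 1), a scale that understates changes of low genes, gave 1, which was higher, and glmTreat 5, all higher. The 1 member lower by at least 2-fold became 0 with upper quartile scaling, library totals, the stricter filter, either limma scale and glmTreat, 2 with DESeq2 and 4 without the abundance trend, and between 0 and 2 when a library was left out. The median log2 fold change of the members was 0.0052 with RLE, 0.14 with upper quartile scaling, 0.21 with library totals, 0.18 with DESeq2, 0.20 with no filter beyond 1 count, 0.067 with the stricter filter, 0.19 and 0.079 with limma on log2(FPKM + 0.1) and log2(FPKM + 1), 0.041 without the abundance trend, -0.053 at a mean of at least 1 FPKM, and between -0.036 and 0.033 when a library was left out, so its sign was not stable. Cystine and glutathione genes numbered 5 higher and 3 lower with library totals and 3 lower with upper quartile scaling, and 4 glutamine and glutamate enzymes were higher with library totals.

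Among the 24 named members, the directions that turned were those of SLC6A6 (0.042 with library totals, 0.018 and 0.017 with limma on log2(FPKM + 0.1) and log2(FPKM + 1), and 0.11 without the abundance trend), SLC7A7 (0.064, 0.045, 0.044 and 0.15 in the same order, the last past the threshold), SLC3A2 (0.041 without the trend), SLC43A2 (0.0097 with library totals), SLC36A4 (-0.0059 with DESeq2, and from -0.038 to 0.058 when a library was left out, below 0 without NC replicate 1 or siFSCN1 replicate 3) and SLC38A1 (from -0.0019 to 0.050 when a library was left out, below 0 without siFSCN1 replicate 3). Of the other tested members SLC6A8 (-0.14 to 0.20 over all alternatives), SLC6A12 (-0.15 to 0.67), SLC16A9 (-0.21 to 0.28) and SLC16A13 (-0.24 to 0.054) turned under at least 1 alternative and passed under none. The causes were not tested. Replicate numbers did not pair the libraries, since the deviations of same-numbered libraries correlated at -0.035, 0.040 and -0.084. With a replicate block 42 members passed, 21 in each direction, and of the 24 named members 23 kept their call and SLC5A2 passed. Members with few counts, of which 28 were not tested, limit what this depth can show.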

Other observations

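Antisense RNAs of the transporter genes were mostly at or below the limit of the test. SLC16A1-AS1, which overlaps 3.6% of the exonic bases of SLC16A1, was higher in siFSCN1 (log2 fold change 0.47, adjusted p = 0.0164 in edgeR) at a mean of 0.157 FPKM in NC and 0.243 FPKM in siFSCN1, while SLC16A1 was lower. SLC2A1-AS1 was higher as well (0.79, adjusted p = 0.0298 in edgeR) beside a lower SLC2A1, at 0.13 and 0.26 FPKM. SLC7A11-AS1 had a mean of 0.0067 FPKM in NC and 0.013 FPKM in siFSCN1 and was not tested. Reads in the bases that SLC16A1-AS1 shares with SLC16A1 cannot be told apart without the strand setting of the counting, and the annotation puts no exon of SLC2A1-AS1 opposite SLC2A1.

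Other SLC families were not part of the comparison, but 201 of their protein-coding genes were tested and 63 were higher and 90 lower, with a median log2 fold change of -0.11. Over all tested protein-coding genes 34.1% were higher and 38.0% lower, with a median of -0.024. Among the more abundant genes of these other families that passed, SLC35A4 (-2.23) and the zinc carriers SLC39A14 (-1.67), SLC39A9 (-1.10) and SLC39A1 (-1.03) were lower. SLC23A1 (1.80), a vitamin C carrier, SLC29A4 (1.10) and SLC12A2 (0.88), a sodium, potassium and chloride carrier, were higher. Each gene named here had a mean of at least 5.02 FPKM over the 6 libraries, and rarer ones are not named.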
